A study of Mus musculus with 6 samples.

Results

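The genes described are the 10 rows of the expression table whose symbol is *Eln* (elastin), *Fbn1* or *Fbn2* (fibrillins), *Fbln1*, *Fbln2* or *Fbln5* (fibulins), *Efemp1* or *Efemp2* (fibulins also known as fibulin-3 and fibulin-4), or *Mfap4* or *Mfap5* (microfibril-associated proteins). They are 10 of the 28987 genes in the table, they were taken by name with no threshold on their values, and all 10 passed the filter on low values. In the EGFP+ cells sorted from pressure-overloaded hearts, *Mfap5*, *Mfap4* and *Fbn1* had the highest levels of the 10, and *Eln* and *Fbn2* had the lowest levels in the controls. No member passed adjustment for multiple testing between the control and Hsp47-deleted labels. *Fbln5* was the member with the smallest p, about 1 on the log2 scale higher in the libraries labelled Hsp47-deleted, and its value hardly differed among the 3 controls.

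Elastic fibres let arteries, lung, skin and heart valves stretch and recoil, and a sparse elastic network also runs through the myocardium. Fibrillins polymerize into microfibrils, and the precursor tropoelastin is deposited on this scaffold and cross-linked by lysyl oxidases. Fibulins and microfibril-associated proteins bind elastin, fibrillin or both and help to bring elastin, cross-linking enzyme and scaffold together, and fibrillin microfibrils also hold latent TGF-β complexes in the matrix.

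RNA was sequenced from EGFP+ cells isolated from mouse ventricles 4 weeks after transverse aortic constriction (TAC), surgery that narrows the aorta and overloads the left ventricle, performed per the labels at 8 to 10 weeks of age. All mice carried MerCreMer, a tamoxifen-activated Cre, in the *Postn* locus and a Cre-dependent EGFP reporter in the Rosa locus, and all received tamoxifen by injection (100 mg/kg) and in chow (40 mg/kg) per the labels, while the methods of the study give other doses. The 3 libraries labelled Hsp47-deleted (replicates 1, 2 and 3) came from mice that in addition carried Hsp47flox/flox, and no such allele is listed for the 3 control libraries (replicates 2, 3 and 4). By design recombination is limited to cells in which the *Postn* locus is active, so EGFP is meant to mark activated fibroblasts and their descendants. Marker RNA of other cell types was also present in both groups, and the purity of the sort is not known here. The *Postn* locus that carries MerCreMer is altered in both groups. The level of *Postn* itself nevertheless differed between the labels, at 6.12, 5.86 and 5.86 across control replicates 2, 3 and 4 and at 10.22, 10.50 and 10.36 across Hsp47-deleted replicates 1, 2 and 3 (difference 4.41 in log2(value + 1), limma, BH-adjusted p = 0.00337), and its part in the members' differences was not tested. The paper also reports *Postn* as induced with the deletion, by RT-PCR. The labels do not say that each library is 1 mouse, so the p-values measure the spread between libraries. Control replicates 3 and 4 carry another sequencing run label (the first run) than control replicate 2 and the 3 libraries labelled Hsp47-deleted (the second run).

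Levels are log2(value + 1) as deposited, and differences are the mean of the libraries labelled Hsp47-deleted minus the mean of the controls on that scale, which understates the difference for genes with low values. The linear unit is not stated, and the number of reads behind a value is unknown. The fibroblast marker list had all 10 genes in the table, with a summed linear level of 8782 to 11910 across controls and 14470 to 15980 across the libraries labelled Hsp47-deleted. *Col1a2*, *Dcn*, *Postn*, *Tcf21* and *Vim* were higher in every library labelled Hsp47-deleted than in all controls. At *Pdgfra*, *Col1a1*, *Lum*, *Ddr2* and *Thy1* the groups overlapped. The sum weighs the genes with the highest levels most, above all *Dcn*, and does not measure the share of fibroblasts. The targeted gene *Hsp47*, listed as *Serpinh1*, was at 7.60, 6.28 and 6.10 across control replicates 2, 3 and 4 and at 6.87, 6.67 and 6.66 across Hsp47-deleted replicates 1, 2 and 3, a difference of 0.07 (95% interval -0.91 to 1.06). It was lower against control replicate 2 alone (-0.87), after centring on the median (-0.34) and relative to the median gene (-0.28), but not in the pooled comparison as deposited, so the groups are called by their labels throughout. By Western blot the paper reports that Hsp47 protein was efficiently lost from sorted EGFP+ cells of the deleted genotype. These RNA values do not measure protein. The loxP sites target an exon, whereas the RNA value is for the gene as a whole. The difference of the median gene of all 15109 tested was 0.36 rather than 0, and each difference is therefore also read against that shift.

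The upstream sequences of 2 fibulin genes are shown, chosen by different measures. *Fbln5* had the smallest p of the members, and *Efemp1* was the only member with a negative pooled difference. By the pooled difference itself *Efemp2* (1.00) lay above *Fbln5* (0.96). Each line gives the 250 bases before the RefSeq start (GRCm38.p6), 5′ to 3′ on the gene's strand, from chr12:101819120-101819369 (minus strand) for *Fbln5*, the first of its 2 listed starts, and from chr11:28852955-28853204 (plus strand) for *Efemp1*. Capitals mark the GC box, GGGCGG or its complement CCGCCC.
Fbln5: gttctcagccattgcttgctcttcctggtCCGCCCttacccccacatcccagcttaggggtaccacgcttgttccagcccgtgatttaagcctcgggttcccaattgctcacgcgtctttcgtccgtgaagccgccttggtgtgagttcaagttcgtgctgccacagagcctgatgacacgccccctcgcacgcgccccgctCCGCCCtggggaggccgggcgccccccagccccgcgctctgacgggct
Efemp1: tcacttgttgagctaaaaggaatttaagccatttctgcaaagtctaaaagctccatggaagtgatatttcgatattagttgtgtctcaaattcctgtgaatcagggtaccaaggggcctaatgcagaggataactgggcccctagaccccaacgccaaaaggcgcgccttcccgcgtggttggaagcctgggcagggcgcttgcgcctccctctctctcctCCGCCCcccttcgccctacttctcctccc
The *Fbln5* stretch holds 2 GC boxes and the *Efemp1* stretch 1, and 32.7% of all 32851 promoter windows of this length hold at least 1. Neither stretch holds CAGAC or GTCTG (a SMAD-binding element, in 42.2% of windows), CATTCC or GGAATG (a TEAD motif, in 12.6%), or TATAAA or TTTATA (in 12.4%), and none of the marked matches overlap another of these motifs. Upstream of the second *Fbln5* start (chr12:101818485-101818734, not shown) there are 0 GC boxes and 2 SMAD-binding elements, so these counts depend on the start chosen. The GC content of the stretch shown was 65.2% for *Fbln5* and 53.6% for *Efemp1*. A match or its absence is a description of these letters only. Of the 10 members 6 had an upstream sequence in the set used here, and *Eln*, *Fbn2*, *Mfap4* and *Mfap5* are named here without sequence.

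The members covered a wide range of levels, in an order that was largely the same in every library. From the highest control mean downward the order was *Mfap5*, *Mfap4*, *Fbn1*, *Fbln2*, *Fbln1*, *Fbln5*, *Efemp1*, *Efemp2*, *Eln* and *Fbn2*. Such an order between genes holds only if the values are per transcript length, as the abundances of kallisto, a tool in the submitters' processing notes, are. Each of the first 6 steps, from *Mfap5* to *Efemp1*, ran the same way in 6 of 6 libraries. *Efemp1* was above *Efemp2* in 3 libraries, the 3 controls, and below it in the other 3. *Eln* was above *Fbn2* in 5 of 6 libraries, with a gap that ranged down to -0.82 in control replicate 4. The members together made up 0.401%, 0.330% and 0.283% of the summed linear values across control replicates 2, 3 and 4, and 0.536%, 0.560% and 0.455% across Hsp47-deleted replicates 1, 2 and 3. The neighbours *Efemp1* and *Efemp2* (mean gap -0.13 ± 0.83, SD, n = 6) and *Eln* and *Fbn2* (1.93 ± 1.90, SD, n = 6) thus lay within or near their spread, whereas *Mfap5* lay above *Mfap4* by 0.43 ± 0.13 (SD, n = 6).

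**Figure D1:**
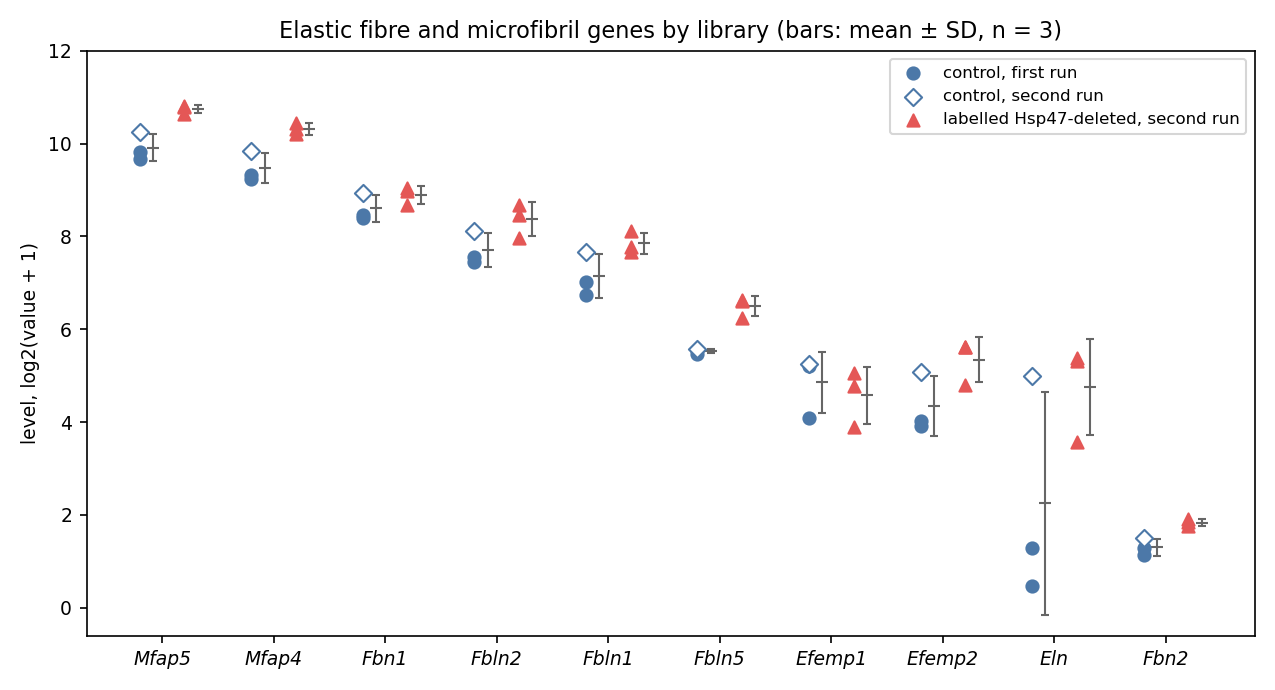
Level of each member in each library, as log2(value + 1), ordered by the control mean. Circles are the first-run controls, open diamonds the second-run control, triangles the libraries labelled Hsp47-deleted, and bars the mean ± SD of each group (n = 3). The open diamond lies above both circles at all 10 genes, most at *Eln*, and the 3 triangles of *Fbln5* (6.24 to 6.63) exceed all its controls (5.47 to 5.57).

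The question of the comparison is whether deletion of *Hsp47*, the collagen chaperone, goes with other levels of the elastic fibre genes in activated fibroblasts. Of the 10 members, 9 had a positive difference between the labels and *Efemp1* a negative one, and 74.5% of all tested genes had a positive difference. At a BH-adjusted limma p under 0.05, 0 of the 10 were called, with a smallest adjusted p of 0.274 for *Fbln5*, and the share of all tested genes called was 0.245% (0.232% higher and 0.0132% lower). At an unadjusted limma p under 0.05, 4 members were higher (*Fbln5*, *Mfap4*, *Mfap5* and *Efemp2*) and 0 lower, where 14.5% of all genes were higher and 0.755% lower. At 5 members (*Fbln5*, *Mfap4*, *Mfap5*, *Fbln1* and *Fbn2*) every library of the Hsp47-deleted label exceeded all 3 controls, where 18.3% of all genes did so, and at 0 members every such library was below all 3 (1.5% of all genes). The median difference of the members was 0.77, against 0.36 for all tested genes. In bulk RNA a lower or higher share of cells that express a gene and a lower or higher amount of its RNA per cell cannot be told apart.

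These counts turned on single libraries. Without control replicate 2, the only control of the second run, 6 members were called at a BH-adjusted limma p under 0.05 (*Eln*, *Fbln1*, *Fbln5*, *Efemp2*, *Mfap4* and *Mfap5*), but 2768 of all genes were called in that comparison, in which run and label coincide. At an unadjusted p under 0.05 the count was 7 without control replicate 2 (29.5% of all genes), 4 without Hsp47-deleted replicate 3 (12.1%) and 1 without each of the other 4 libraries (5.48% to 8.36%). The members whose groups did not overlap numbered 9 when control replicate 2 was left out (41.4% of all genes) and 9 when Hsp47-deleted replicate 3 was (32.5%). Against control replicate 2 alone, which has no test, 7 members had a positive difference (71.8% of all genes), with a median of 0.25 against 0.29 for all genes. At 5 of them (*Fbln5*, *Mfap4*, *Mfap5*, *Fbln1* and *Fbn2*) the 3 libraries labelled Hsp47-deleted lay above that control, where 46.7% of all genes did so, and at *Efemp1* all 3 lay below it, where 11.7% did. With sequencing run as a covariate the control arm is again control replicate 2 alone, so the estimates are those just given, and the first-run controls add only to the estimate of the spread. In that fit 1 member, *Fbln5*, had an unadjusted limma p under 0.05 (5.46% of all genes in the higher direction, 1.27% in the lower), and 0 passed adjustment. With each library centred on its median, 8 members had a positive difference (45.7% of all genes) and 0 an unadjusted limma p under 0.05 (4.73% of all genes in the higher direction).

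**Figure D2:**
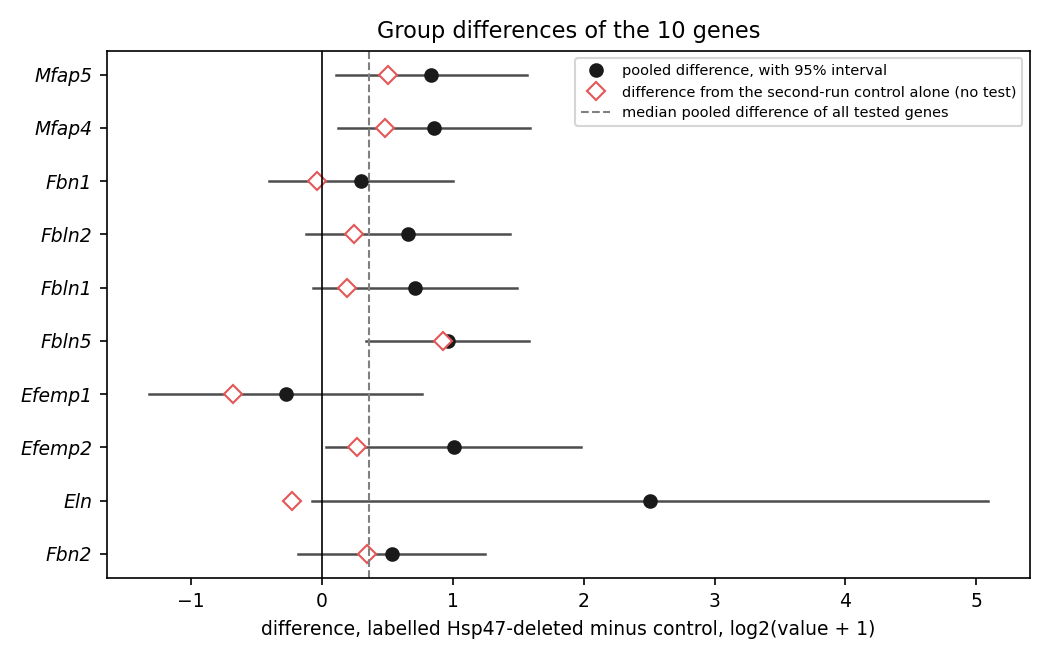
Difference of each member between the labels (labelled Hsp47-deleted minus control, log2(value + 1)). Filled points are the pooled difference with its 95% limma interval, open diamonds the difference from control replicate 2 alone, and the dashed line the median pooled difference of all tested genes (0.36). For *Fbln5* both markers lie close together (0.96 and 0.92), and for *Eln* they lie at 2.51 and -0.23.

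Elastin is the rubber-like core of the fibre, and its gene *Eln* (ENSMUSG00000029675, chromosome 5 from 134702593 to 134747323 on the minus strand, GRCm38) had the widest spread of the members. Its level was 4.99, 1.30 and 0.47 across control replicates 2, 3 and 4 and 5.39, 5.32 and 3.56 across Hsp47-deleted replicates 1, 2 and 3. The first-run controls were low, the second-run control lay within the range of the libraries labelled Hsp47-deleted, and the groups overlapped. The pooled difference was 2.51 (standard error 1.12, 95% interval -0.08 to 5.09, limma, BH-adjusted p = 0.334), and the difference from control replicate 2 alone was -0.23. It was 3.87 without control replicate 2 (limma, BH-adjusted p = 0.00894), 1.61 without control replicate 4 and 1.56 with a pseudocount of 5. In rank among the 15109 tested genes, *Eln* stood at percentile 83.2 in control replicate 2, at 20.5 and 5.7 in the first-run controls, and at 84.7, 82.5 and 55.0 in the libraries labelled Hsp47-deleted. With the log2 undone its value was 1.46 and 0.381 in control replicates 3 and 4, near the bottom of what was tested, and 30.7 in control replicate 2.

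The fibrillins build the microfibril on which elastin is laid down. *Fbn1* (ENSMUSG00000027204, chromosome 2 from 125300594 to 125507993, minus strand), the main fibrillin of adult tissue, was at 8.94, 8.47 and 8.40 across control replicates 2, 3 and 4 and at 8.98, 9.04 and 8.68 across Hsp47-deleted replicates 1, 2 and 3. Control replicate 2 lay among the libraries labelled Hsp47-deleted, so the groups overlapped. The pooled difference was 0.30 (95% interval -0.41 to 1.00, limma, BH-adjusted p = 0.648), below the shift of all genes by 0.06, and it was -0.12 once each library was centred on its median and -0.26 with quantile normalization. *Fbn2* (ENSMUSG00000024598, chromosome 18 from 58008623 to 58210487, minus strand), a fibrillin used mainly in development, was at 1.49, 1.13 and 1.29 in the controls and at 1.84, 1.91 and 1.76 in the libraries labelled Hsp47-deleted. Its groups did not overlap, at a low level, with a difference of 0.53 (95% interval -0.18 to 1.24, limma, BH-adjusted p = 0.421) and of 0.34 from control replicate 2 alone.

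*Fbln5* (ENSMUSG00000021186, chromosome 12 from 101746565 to 101819055, minus strand) encodes fibulin-5, which binds elastin and integrins and is needed for elastic fibre formation. Its level was 5.57, 5.56 and 5.47 across control replicates 2, 3 and 4 and 6.24, 6.63 and 6.61 across Hsp47-deleted replicates 1, 2 and 3. The controls of both runs lay together and all 3 libraries labelled Hsp47-deleted were higher. The difference was 0.96 (standard error 0.27, 95% interval 0.34 to 1.58, limma, unadjusted p = 0.00762, BH-adjusted p = 0.274), which is 0.60 above the shift of all genes and larger than 82.8% of all pooled differences. It was 0.92 from control replicate 2 alone, with run as a covariate (95% interval 0.14 to 1.71, limma, BH-adjusted p = 0.667), and 0.54 after centring on the median.

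*Fbln1* and *Fbln2* encode larger fibulins that bind fibronectin, basement membrane proteins and elastic fibres. *Fbln1* (ENSMUSG00000006369, chromosome 15 from 85205949 to 85286535, plus strand) was at 7.66, 7.02 and 6.75 across control replicates 2, 3 and 4 and at 7.78, 8.11 and 7.67 across Hsp47-deleted replicates 1, 2 and 3. The groups did not overlap, but Hsp47-deleted replicate 3 lay only just above control replicate 2, and the difference was 0.71 pooled (95% interval -0.07 to 1.49, limma, BH-adjusted p = 0.351) and 0.19 from control replicate 2 alone. *Fbln2* (ENSMUSG00000064080, chromosome 6 from 91212455 to 91272540, plus strand) was at 8.13, 7.56 and 7.45 in the controls and at 8.68, 8.47 and 7.96 in the libraries labelled Hsp47-deleted. There control replicate 2 lay above Hsp47-deleted replicate 3, and the difference was 0.66 (95% interval -0.12 to 1.44, limma, BH-adjusted p = 0.381) and 0.24 from control replicate 2 alone.

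*Efemp2* and *Efemp1* encode small fibulins of like build, of which fibulin-4 (*Efemp2*) is required for elastin cross-linking by lysyl oxidase. *Efemp2* (ENSMUSG00000024909, chromosome 19 from 5473954 to 5482517, plus strand) was at 5.08, 3.91 and 4.03 across control replicates 2, 3 and 4 and at 5.63, 5.63 and 4.79 across Hsp47-deleted replicates 1, 2 and 3. Control replicate 2 lay above Hsp47-deleted replicate 3, and the difference was 1.00 pooled (95% interval 0.03 to 1.98, limma, unadjusted p = 0.0443, BH-adjusted p = 0.323) and 0.26 from control replicate 2 alone. *Efemp1* (ENSMUSG00000020467, chromosome 11 from 28853204 to 28926743, plus strand) was at 5.26, 5.21 and 4.10 in the controls and at 5.06, 4.78 and 3.89 in the libraries labelled Hsp47-deleted. The groups overlapped, with a difference of -0.28 (95% interval -1.32 to 0.76, limma, BH-adjusted p = 0.779), at percentile 12.4 of all pooled differences. It was -0.68 from control replicate 2 alone and 0.06 without Hsp47-deleted replicate 3.

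*Mfap5* and *Mfap4* encode proteins that decorate microfibrils, *Mfap5* a small glycoprotein that binds fibrillin and *Mfap4* a fibrinogen-related protein that binds elastin and fibrillin. Both stood at or above percentile 99.4 of the tested genes in every library. *Mfap5* (ENSMUSG00000030116, chromosome 6 from 122505845 to 122529290, plus strand) was at 10.24, 9.83 and 9.67 across control replicates 2, 3 and 4 and at 10.81, 10.79 and 10.65 across Hsp47-deleted replicates 1, 2 and 3. *Mfap4* (ENSMUSG00000042436, chromosome 11 from 61485431 to 61488900, plus strand) was at 9.84, 9.24 and 9.33 in the controls and at 10.20, 10.45 and 10.32 in the libraries labelled Hsp47-deleted. At both genes control replicate 2 was the highest control and still lay below all 3 libraries labelled Hsp47-deleted. The difference was 0.83 for *Mfap5* (95% interval 0.10 to 1.57, limma, unadjusted p = 0.0304, BH-adjusted p = 0.306) and 0.85 for *Mfap4* (95% interval 0.12 to 1.59, limma, unadjusted p = 0.0279, BH-adjusted p = 0.306). From control replicate 2 alone the differences were 0.50 and 0.48, against 0.29 for the median of all genes there.

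The controls of both runs differed at the members themselves. At all 10 members control replicate 2 lay above control replicates 3 and 4, where 46.4% of all tested genes did so, and the median gap to the mean of the first-run controls was 0.58, against 0.11 for all tested genes. The gap was 4.11 for *Eln*, 1.11 for *Efemp2*, 0.78 for *Fbln1*, 0.62 for *Fbln2*, 0.60 for *Efemp1*, 0.56 for *Mfap4*, 0.50 for both *Fbn1* and *Mfap5*, 0.28 for *Fbn2* and 0.05 for *Fbln5*. At 5 of the 10 members (*Eln*, *Efemp2*, *Fbln1*, *Fbn1* and *Efemp1*) this gap between controls was larger than the size of the pooled difference between the labels, and for *Fbln5* it was far smaller. Over the 14783 tested genes with an annotated transcript the gap moved with the GC content of the longest annotated transcript, from a median of -0.22 among the genes up to 44.8% GC to 0.69 among those from 54.0%, the outer of 4 bins of equal size. *Eln* has the most GC-rich transcript of the members (58.8%) and *Efemp1* and *Fbln5* the least (44.9% and 46.9%). The gap of *Eln* (4.11) lay far above the median of its bin (0.69). *Efemp1* (0.60) and *Fbln5* (0.05) share a bin with a median of -0.10. The part of GC content in the gaps of the members was not tested. With trends over transcript GC content and length removed in each library, a setting that was chosen after the values were seen, the difference was 2.12 for *Eln*, 1.15 for *Fbln5*, 0.95 for *Mfap5*, 0.83 for *Efemp2*, 0.68 for *Mfap4*, 0.51 for *Fbln1*, 0.43 for *Fbn2*, 0.34 for *Fbln2*, 0.20 for *Fbn1* and -0.09 for *Efemp1*.

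**Figure D3:**
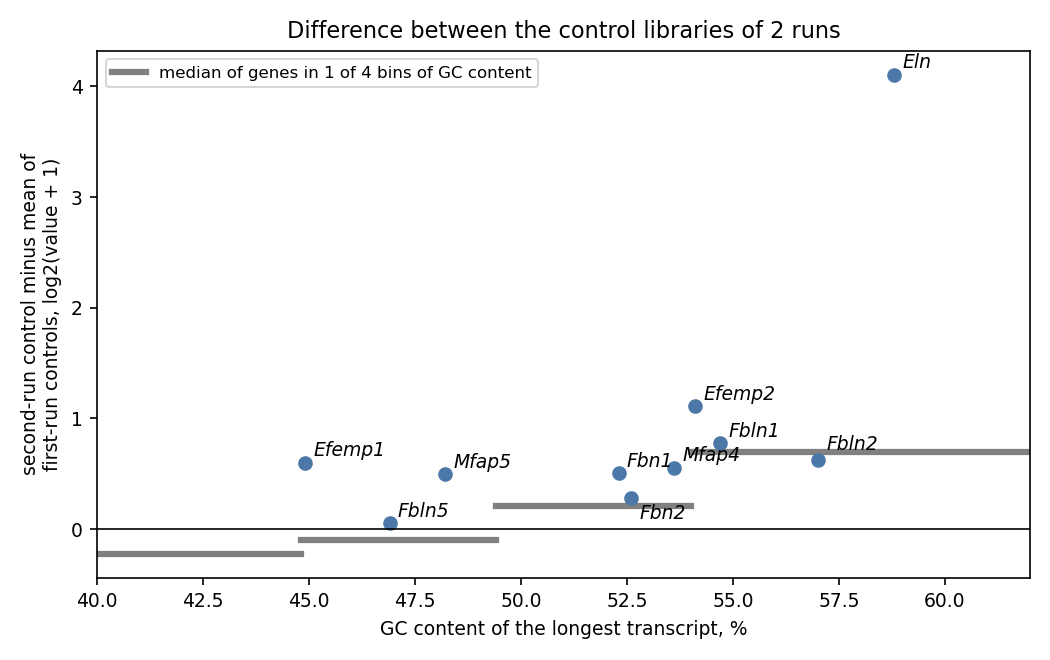
Gap between control replicate 2 (second run) and the mean of control replicates 3 and 4 (first run), in log2(value + 1), against the GC content (%) of the longest annotated transcript of each member. Grey bars are medians over the 14783 tested genes with an annotated transcript, in 4 bins of GC content. *Eln* lies at 4.11, *Efemp2* at 1.11, and the other members lie between 0.05 and 0.78.

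Differences between 2 members of the same library largely cancel a scaling factor of that library, and 6 pairs were compared by two-sided exact permutation tests, for which 3 against 3 cannot give a p under 0.10. *Efemp2* minus *Efemp1* was -0.17, -1.30 and -0.06 across control replicates 2, 3 and 4 and 0.57, 0.85 and 0.91 across Hsp47-deleted replicates 1, 2 and 3. The groups did not overlap, with fibulin-4 above fibulin-3 only in the libraries labelled Hsp47-deleted, and the mean difference between the labels was 1.28 (exact permutation p = 0.10, the smallest possible, BH-adjusted over the 6 pairs p = 0.60) and 0.95 from control replicate 2 alone. Such a pair does not cancel a trend over GC content. *Efemp2* (54.1% GC) lies in a bin with a median pooled difference of 0.75 over all genes. *Efemp1* (44.9%) lies in one with 0.24. The part of GC content in this pair was not tested. *Eln* minus *Fbn1*, elastin relative to its scaffold, was -3.95, -7.17 and -7.93 in the controls and -3.59, -3.73 and -5.11 in the libraries labelled Hsp47-deleted (mean difference 2.21, exact permutation p = 0.20), and -0.20 from control replicate 2 alone. *Fbn2* minus *Fbn1* was -7.30 ± 0.17 (SD, n = 3) and -7.06 ± 0.13 (SD, n = 3), *Fbln5* minus *Eln* 3.28 ± 2.37 (SD, n = 3) and 1.74 ± 1.16 (SD, n = 3). The mean of 2 pairs was nearly the same in both groups, *Mfap5* minus *Mfap4* at 0.44 ± 0.13 (SD, n = 3) and 0.42 ± 0.16 (SD, n = 3), and *Fbln1* minus *Fbln2* at -0.57 ± 0.12 (SD, n = 3) and -0.52 ± 0.33 (SD, n = 3). These last 4 pairs had exact permutation p-values of 0.30, 0.40, 0.90 and 0.90.

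**Figure D4:**
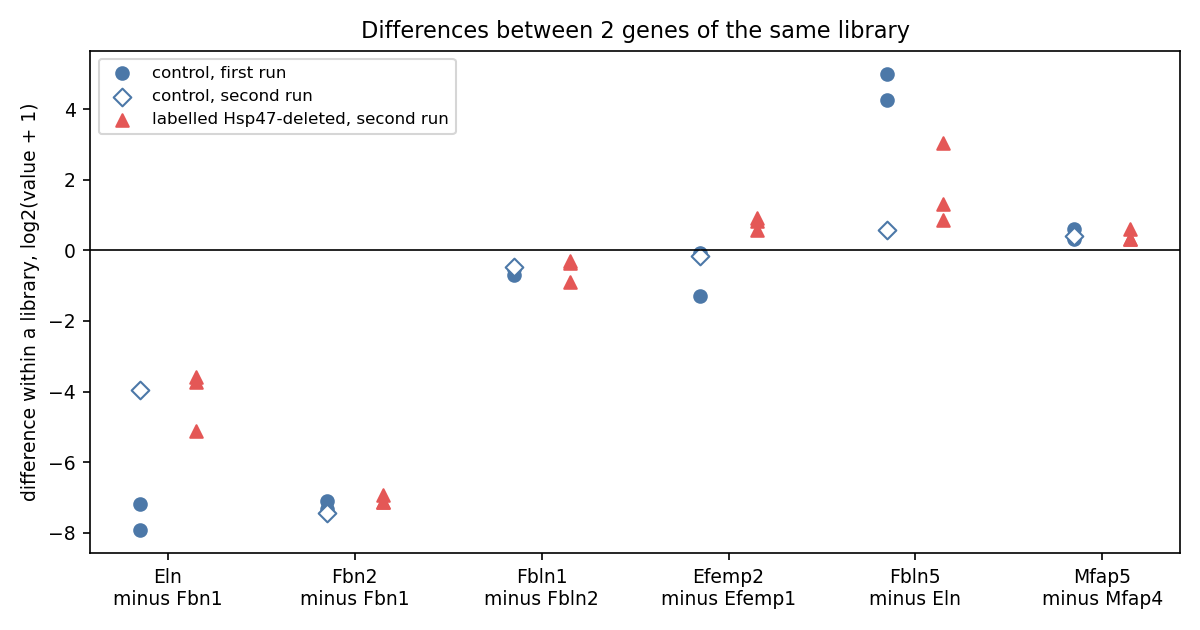
Difference between 2 members of the same library, in log2(value + 1), for the 6 pairs compared. Circles are the first-run controls, open diamonds the second-run control and triangles the libraries labelled Hsp47-deleted. *Efemp2* minus *Efemp1* lies below 0 in the 3 controls and above 0 in the 3 libraries labelled Hsp47-deleted, while *Eln* minus *Fbn1* of the second-run control lies among the triangles.

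A list of 45 other genes that build, cross-link, process or degrade elastic fibres was in the table in full, and 41 passed the filter on low values. After BH adjustment of the limma p-values, 0 of the 41 were called in either direction. At an unadjusted p under 0.05, 16 were higher and 0 lower (14.5% and 0.755% of all genes), and 33 had a positive difference (74.5% of all genes), with a median of 0.86 (0.36 for all genes). Without control replicate 2 the first count was 25 (29.5% of all genes), with 3 lower. The share of all genes lower in that setting is not given, so the 3 are not read as a change. It was 8 without control replicate 3 (5.48% of all genes) and 10 without Hsp47-deleted replicate 2 (6.72%). With run as a covariate it was 7 (5.46%). Against control replicate 2 alone, 31 had a positive difference (71.8% of all genes), with a median of 0.34 (0.29 for all genes), and at 22 all 3 libraries labelled Hsp47-deleted lay above it (46.7% of all genes). The counts of 31 and 22 against control replicate 2 were near the shares of all genes. The study names *Fbn* (fibrillin, with no number), *Fn*, *Lox*, *Furin* and *Mmp9*. The selection of *Fbn1* among the members and of *Fn1*, *Lox*, *Furin* and *Mmp9* among these genes was not independent of it. By RT-PCR on sorted EGFP+ myofibroblasts after TAC, it reports *Fn* and *Fbn* as reduced with the deletion and *Lox* and *Furin* as induced. In cultured fibroblasts the study also reports *Fn* and *Fbn* as reduced, and *Mmp9* as induced. From its mRNA profiling of sorted cells it concludes that genes related to the extracellular matrix were reduced. *Mmp9* did not pass the filter on low values here. Here the pooled differences were 0.86 for *Fn1*, 0.30 for *Fbn1*, 1.13 for *Lox* and 0.96 for *Furin*. From control replicate 2 alone *Fn1* was at 0.99, *Fbn1* at -0.04, *Lox* at 1.87 and *Furin* at 1.02. The reason for the opposite pooled direction at *Fn1* and *Fbn1* was not tested.

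Among the partners that bind microfibrils or elastin, 5 of 11 tested genes were higher and 0 lower at an unadjusted p under 0.05, to be read like the other lists against the 14.5% of all genes that were higher (*Emilin1*, *Ltbp2*, *Ltbp3*, *Ltbp4* and *Fn1*). *Emilin1*, which encodes a glycoprotein at the interface of elastin and microfibrils, was at 5.36, 4.67 and 4.94 across control replicates 2, 3 and 4 and at 6.95, 7.48 and 6.79 across Hsp47-deleted replicates 1, 2 and 3. Its difference of 2.08 (standard error 0.33, limma, BH-adjusted p = 0.0698) did not pass, and it was 1.71 from control replicate 2 alone. *Ltbp2*, a latent TGF-β binding protein family member found on microfibrils, was at 6.62, 5.97 and 6.16 in the controls and at 7.59, 8.02 and 7.67 in the libraries labelled Hsp47-deleted (difference 1.51, standard error 0.30, limma, BH-adjusted p = 0.142), and 1.14 higher than control replicate 2 alone. At both genes the groups did not overlap. *Mfap2*, the other small microfibril glycoprotein beside *Mfap5*, spread as *Eln* did, at 4.71, 1.94 and 0.42 in the controls and 4.48, 4.09 and 3.21 in the libraries labelled Hsp47-deleted.

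Of the cross-linking genes 2 of 6 were higher and 0 lower at an unadjusted p under 0.05. *Loxl3*, a lysyl oxidase family member, was at 4.80, 4.39 and 4.57 in the controls and at 6.45, 6.77 and 6.01 in the libraries labelled Hsp47-deleted, a difference of 1.82 (standard error 0.31, limma, BH-adjusted p = 0.0864) and of 1.61 from control replicate 2 alone. *Loxl1*, the lysyl oxidase most closely tied to elastic fibre upkeep, differed by 1.71 (standard error 0.60, limma, BH-adjusted p = 0.294) and by 0.32 from control replicate 2 alone, with overlapping groups. Of the folding and processing genes 3 of 6 were higher and 0 lower, *Furin*, the protease that trims profibrillin, by 0.96 (limma, BH-adjusted p = 0.276, and 1.02 from control replicate 2 alone) and *Fkbp10*, a chaperone of tropoelastin and procollagen, by 1.13 (limma, BH-adjusted p = 0.283, and 0.65 from control replicate 2 alone), the third being *Hspa5*.

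Of the ADAMTS and ADAMTS-like genes, whose products bind or shape microfibrils, 3 of 8 tested were higher and 0 lower at an unadjusted p under 0.05, with *Adamts6* (1.05) and *Adamtsl2* (1.74) at the smallest p (limma, BH-adjusted p = 0.281 for both, and 0.83 and 0.66 from control replicate 2 alone). Of the microfibril-binding proteoglycan genes 1 of 4 was higher and 0 lower. It was *Hspg2*, perlecan (1.00, limma, BH-adjusted p = 0.324, and 0.18 from control replicate 2 alone), and *Vcan*, versican, with the next smallest p, had a difference of -1.36 (limma, BH-adjusted p = 0.363) but was 0.19 above control replicate 2 alone. Of the proteases that can degrade elastin, 2 of 6 tested were higher and 0 lower, *Mmp2* (1.07, limma, BH-adjusted p = 0.252) and *Ctsk* (1.00, limma, BH-adjusted p = 0.294), by 0.97 and 0.90 from control replicate 2 alone, and their groups did not overlap.

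**Figure D5:**
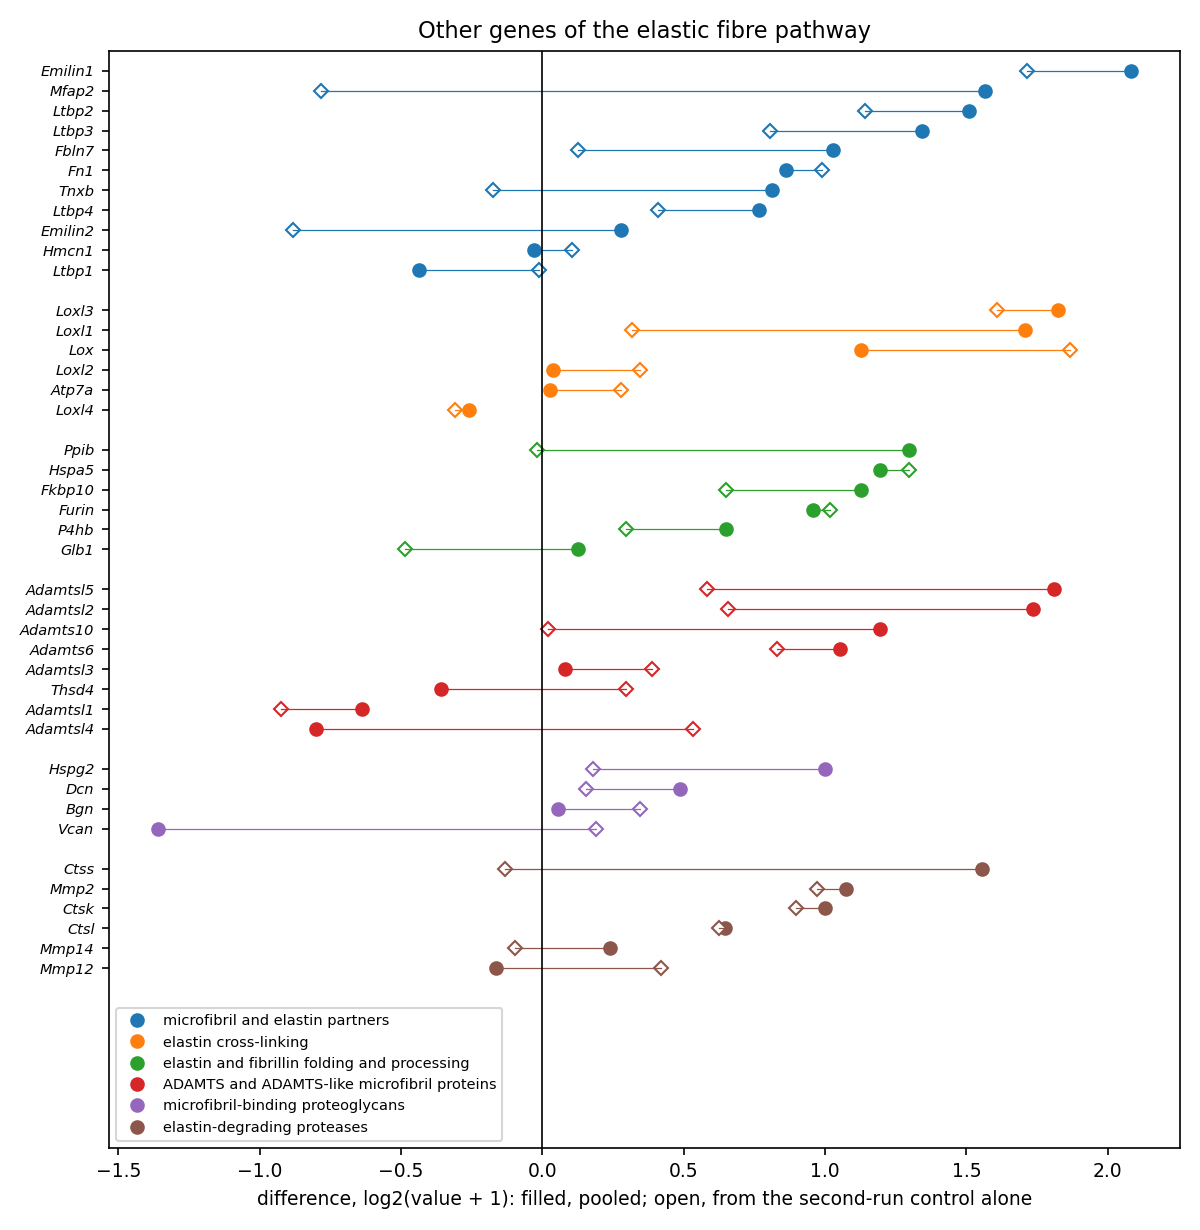
Difference of each of the 41 tested pathway genes in log2(value + 1), by list. Filled points are the pooled difference between the labels and open diamonds the difference from control replicate 2 alone, joined by a line. *Emilin1*, *Loxl3*, *Ltbp2*, *Lox* and *Hspa5* stay above 1 by both, while *Mfap2* goes from 1.57 to -0.78 and *Vcan* from -1.36 to 0.19.

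Other cell types can also make elastic fibre proteins, so markers of 5 of them were set beside the members. The summed linear level of the cardiomyocyte list spanned 46.5 to 290.2 across controls and 172.8 to 261.5 across the libraries labelled Hsp47-deleted, with 9 of 9 genes in the table. The endothelial list (8 of 8) spanned 92.6 to 247.8 and 156.6 to 234.7, and both lists were highest in control replicate 2 and lowest in control replicate 4, as *Eln* was lowest there. The mural list (8 of 8), whose cells make elastin in vessel walls, spanned 164.7 to 288.9 across controls and 115.8 to 175.8 across the libraries labelled Hsp47-deleted. Its sum was highest in control replicate 3, where *Eln* was at 1.30, and *Rgs5* (7.43, 7.99 and 7.13 across control replicates 2, 3 and 4) weighs most in it. Among the controls *Rgs5* and *Kcnj8* were highest in control replicate 3 and *Cspg4* in control replicate 4. *Abcc9*, *Myh11*, *Cnn1*, *Notch3* and *Des* were highest in control replicate 2, as *Eln* was. The leukocyte list (7 of 8 in the table, *Ptprc* listed at 0 in every library) spanned 37.5 to 89.0 and 96.3 to 123.1, and the mesothelial list (4 of 4) 1.29 to 6.22 and 3.42 to 11.0. Only the leukocyte sums were apart, and at each leukocyte gene with values above 0 the groups overlapped. *Cd68* in control replicate 4 (6.01) and *Lyz2* in control replicate 2 (5.85) lay above every library labelled Hsp47-deleted. The part of these cells in the results was not tested.

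The genes whose library values, centred on each gene's mean, lay closest to those of *Eln* over the 6 libraries were *Tmem254a*, *Klf2* and *Lamtor2*, with mean absolute differences of 0.18, 0.22 and 0.23 on the log2 scale. *Tmem254a* has near-identical copies in the mouse genome and its value is uncertain. Among the closest to *Fbn1* were *Agphd1* and *Epas1*, at 0.04 each. This likeness includes the difference between the runs, since each of these genes was higher in control replicate 2 than in control replicates 3 and 4.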

How the data were processed

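The authors deposited 1 table of log2(value + 1) per gene and library, per the file headers together with their group means and their own comparison of the groups, which were not used. The submitters' processing notes name kallisto and the build mm10 without roles or versions, and the paper names AltAnalyze. The linear unit and the depth are not given in the sources used here. RNA was amplified before library construction.

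The 15109 of 28987 genes with a linear mean of at least 1 entered the fit, made in R 4.3.3 with limma 3.58.1 (eBayes with a mean-variance trend, no covariate, Benjamini-Hochberg (BH) adjustment over all of them). The fit was tested on simulated data. No pair of libraries had identical values at more than 1.5% of tested genes. Positions, transcript lengths and GC content came from GENCODE M21 (GRCm38, the same assembly as mm10), which covered 94.7% of the genes. Upstream sequences came from RefSeq (GRCm38.p6). No member had another gene's transcript at 95% identity over 80% of its length (minimap2 2.31-r1302). Members and lists were chosen with earlier results of these data known. The text names all members, the 2 genes with the smallest p in each pathway list, and the 3 genes closest to *Eln* and to *Fbn1*, of which 1 is not reported here. The remaining pathway genes in the text were chosen after seeing their values. Alternatives were run as a covariate, the second run alone, a replicate block, no filter or a minimum linear mean of 5, pseudocounts of 0.1 or 5, median centring, quantile normalization, no trend, robust estimation (statmod 1.5.0), removal of GC and length trends (lowess, span 0.3), and leaving out each library.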

Additional observations from a re-analysis of the deposited data

How the results depend on the processing

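*Fbn2*, *Fbln1*, *Fbln2*, *Fbln5*, *Efemp2*, *Mfap4* and *Mfap5* kept a positive difference under all alternatives in which they were tested, *Fbln5* from 0.54 to 1.15. With run as a covariate 1 member and 7 pathway genes were higher at an unadjusted p under 0.05 (5.46% of all genes). The members' median difference was then 0.25. *Eln* (-0.23) and *Fbn1* (-0.037) turned negative, as in the second run alone, where 1 member lay below the control (11.7% of all genes). With quantile normalization 1 member and 8 pathway genes were higher and 3 lower, 2 members did not overlap, the median was 0.30 and *Fbn1* was at -0.26. With median centring 0 members and 6 pathway genes were higher (4.73% of all genes) and 2 pathway genes lower. The median was then 0.36 and *Fbn1* was at -0.12. Without a filter 1 member was higher at an unadjusted p under 0.05, and with GC and length trends removed 2. For quantile normalization, no filter, the removal of trends and the replicate block below, the share of all genes at an unadjusted p is not given. It is also not given for the lower direction with median centring or when a library is left out. For non-overlap with quantile normalization the share is missing too. All these counts are therefore not read as changes of the members or of the pathway genes. The cause of these shifts was not tested.

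With the replicate number as a block, 1 member was higher at an unadjusted p under 0.05 and 0 of all genes were called after adjustment. Replicate numbers 2 and 3 are shared by the groups, and deviations of same-numbered libraries had correlations of 0.16 and 0.23 over genes, but these are 2 pairs, 1 of them across runs, so the samples share only a number.

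Leaving out 1 library at a time gave from 0 to 6 members after adjustment, where from 8 to 2768 of all genes were called. At an unadjusted p under 0.05 it gave from 1 to 7 members higher and 0 lower. It also gave from 8 to 25 pathway genes higher and from 0 to 3 lower. The share of all genes higher went from 5.48% to 29.5%. Without overlap, from 5 to 9 members lay above (19.8% to 41.4% of all genes) and from 0 to 1 below. *Efemp1* went from -0.66 to 0.064. For *Fbln1* minus *Fbln2* the range was -0.060 to 0.24 and for *Mfap5* minus *Mfap4* -0.11 to 0.055. Between pairs, the sign also turned against control replicate 2 for *Eln* minus *Fbn1* (-0.20), *Fbln1* minus *Fbln2* (-0.052), *Fbln5* minus *Eln* (1.16) and *Mfap5* minus *Mfap4* (0.020), with quantile normalization for the last (0.067), and with a pseudocount of 5 for *Fbn2* minus *Fbn1* (-0.070). Read depth is unknown, so its limit on low genes such as *Eln* in the first run could not be given.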
